A study of Mus musculus with 10 samples.

Results

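The genes described are the 54 of the 24901 genes in the deposited table whose names mark them as histone lysine methyltransferases, protein arginine methyltransferases or lysine demethylases of mouse embryonic stem cells. They were chosen by name alone (Kdm, Setd, Ehmt, Suv, Mll, Smyd and Prmt genes with a number or letter, and Nsd1, Whsc1, Whsc1l1, Ash1l, Ash2l, Dot1l and Carm1), 3 further names being left out by the rule and not analysed here. They fall into 13 classes by the residue they act on or by family. Ash2l is not an enzyme itself but a core subunit that the H3K4 methyltransferase complexes share. All 54 had a mean of at least 0.1 RPKM and were among the 15161 genes tested.

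The study labelled new RNA in mouse embryonic stem cells with 2 mM bromouridine (BrU) for 10 min, purified it with an antibody and sequenced it (Bru-seq). The values are intronic RPKM, which count reads within introns relative to their length and to sequencing depth, so they follow transcription and not the amount of mRNA. The groups, named by the sample titles, are EloAK754M and EloAK754R, in which the genome was edited so that a lysine of Elongin A (EloA, gene Tceb3) is replaced by methionine (K754M) or arginine (K754R), then Eed_null, labelled as null for the Polycomb subunit Eed, and the wild types EloA_WT and CJ7_WT. Each group has 2 samples, and for Eed_null and CJ7_WT the table holds 1 pooled column each. The medium described for these cells held serum, LIF, the MEK inhibitor PD0325901 at 1 µM and the GSK3 inhibitor CHIR99021 at 3 µM. The field for the parental line reads CJ7 for both edited groups and CJ7_WT but CCE28 for EloA_WT and Eed_null, and the genotype field of Eed_null reads EloA null, whereas its title and column name read Eed null and CJ7. If the line field is right, the parental line and the genotype cannot be told apart in any comparison with EloA_WT, nor between Eed_null and CJ7_WT. Nothing in the labels says how many edited clones were used or whether the samples were separate cultures, so the p-values rest on the spread of these samples alone, and that spread may be technical.

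Histone methylation is written by SET domain enzymes and Dot1l, which use S-adenosylmethionine, and erased by the FAD-dependent LSD enzymes and the iron- and 2-oxoglutarate-dependent Jumonji demethylases. Methylation of H3K4 goes with active promoters and enhancers, that of H3K36 and H3K79 with transcribed gene bodies, and that of H3K9, H3K27 and H4K20 with silenced or compact chromatin. In embryonic stem cells Setdb1 silences endogenous retroviruses, Kdm2b brings a Polycomb complex to CpG islands, and the edited lysine of Elongin A is known as a target of PRC2, the H3K27 methyltransferase complex that needs Eed.

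Start-site windows were printed for the single called gene that has one, Smyd4, and for Kdm4a, which stood lower in both edited groups, and Kdm5b, which stood apart between them. Each runs from 250 bases before to 50 bases after the RefSeq start on GRCm38.p6, 5′ to 3′ along the gene, and capitals mark matches to the GC box (GGGCGG) or the CCAAT box (CCAAT) on either strand. The Smyd4 window is chr11:75348183-75348482 on the plus strand, that of Kdm4a chr4:118179994-118180293 on the minus strand and that of Kdm5b chr1:134559928-134560227 on the plus strand.
Smyd4: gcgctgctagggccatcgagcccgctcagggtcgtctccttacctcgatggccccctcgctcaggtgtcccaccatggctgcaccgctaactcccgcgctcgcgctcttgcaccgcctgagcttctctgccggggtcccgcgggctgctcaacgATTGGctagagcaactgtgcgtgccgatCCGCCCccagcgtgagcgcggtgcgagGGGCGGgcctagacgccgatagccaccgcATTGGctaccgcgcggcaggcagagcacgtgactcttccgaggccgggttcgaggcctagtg
Kdm4a: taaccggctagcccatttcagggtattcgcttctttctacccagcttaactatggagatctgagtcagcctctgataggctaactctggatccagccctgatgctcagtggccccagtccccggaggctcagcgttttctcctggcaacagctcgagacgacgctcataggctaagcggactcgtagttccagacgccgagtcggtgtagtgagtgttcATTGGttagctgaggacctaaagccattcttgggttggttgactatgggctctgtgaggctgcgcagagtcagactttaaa
Kdm5b: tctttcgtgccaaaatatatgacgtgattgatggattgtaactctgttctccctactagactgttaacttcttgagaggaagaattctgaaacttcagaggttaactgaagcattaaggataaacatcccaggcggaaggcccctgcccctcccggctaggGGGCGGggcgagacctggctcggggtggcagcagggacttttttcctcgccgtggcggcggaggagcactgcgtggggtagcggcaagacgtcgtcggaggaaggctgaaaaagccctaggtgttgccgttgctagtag
RefSeq windows were found for 40 of the 54 genes, and a GC box was present in 28 of them (70%), against 38.2% of all 27025 genes with a window. A gene with several windows counted if any of them matched. The 27025 genes were not limited to those transcribed in these cells. A CCAAT box stood in 47.5% against 41.1% and a TATA box (TATAAA) in 5% against 15.7%. The median number of CG dinucleotides, taking the highest window of each gene, was 29 in the 40 genes and 8 in all genes with a window. The Smyd4 window held 34, that of Kdm4a 13 and that of Kdm5b 17. The other motifs searched, on both strands, were ETS (CCGGAAGT, 2.5% against 4.31%), NRF1 (17.5% against 5.19%), YY1 (7.5% against 0.755%), ATF4 (TGATGNAA, 2.5% against 4.51%) and E2F (TTTCCCGC, 2.5% against 1.24%). A match is a description of the letters and not a binding site.

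The 6 single libraries held between 26601020 and 39301216 intronic reads, as recovered from the steps of the RPKM values, and the pooled columns 72786795 for Eed_null and 87619528 for CJ7_WT. Tceb3 stood at 1.46 and 1.98 RPKM in EloAK754M, 1.12 and 1.30 RPKM in EloAK754R and 1.83 and 2.03 RPKM in EloA_WT (adjusted p = 0.704 for EloAK754M and 0.104 for EloAK754R), and intronic reads do not show a point substitution. Eed stood at 7.97 RPKM in Eed_null and 10.0 RPKM in CJ7_WT, so its introns were still transcribed and this measure does not bear out the label. All 14 measured of 15 pluripotency markers were above 0.1 RPKM, with sums of 273 to 402 RPKM in EloAK754M, 251 to 265 in EloAK754R, 286 to 296 in EloA_WT, 204 in Eed_null and 223 in CJ7_WT. Of 20 embryonic fibroblast markers, added because feeder cells are named in the protocol, 17 were tested and all 17 had log2 changes above 0 in both edited groups, except that 16 did in EloAK754M with quantile normalization. Their sums were 23.0 and 25.1 RPKM in EloAK754M, 25.9 and 28.5 in EloAK754R 18.6 in each EloA_WT library, 25.0 in Eed_null and 25.8 in CJ7_WT, so that EloA_WT was lowest, and Dcn, Lum and Pdgfra were under 0.1 RPKM. The part of this difference in the results below was not tested.

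The 54 genes were transcribed at moderate levels, with a median of 2.40 RPKM over the 6 libraries against 1.09 RPKM for all tested genes. In all, 46 stood at 1 RPKM or more, 9 at 5 or more and 4 under 0.5. In RPKM, which are per length, the most transcribed over the 6 single libraries were Setd6, Kdm5b, Ash2l, Kdm3a and Setd5. Setd6, a lysine methyltransferase known in human for acting on the NF-kappaB subunit RelA, spanned 9.52 to 17.0 RPKM in the 6 libraries. It rested on only 255 to 404 reads per library. Kdm5b, which removes H3K4 methylation, spanned 9.59 to 15.9 RPKM. Ash2l spanned 7.18 to 13.9 RPKM, Kdm3a, an H3K9 demethylase, 9.82 to 11.4, and Setd5, a SET domain protein, 8.68 to 10.8. Each of these overlapped the next in that order, whereas Setd5 stood above Nsd1, an H3K36 methyltransferase at 6.80 to 8.28 RPKM, in the 6 single libraries. In the pooled columns Nsd1 was the higher, at 8.21 RPKM against 6.13 for Setd5 in Eed_null and 8.90 against 7.40 in CJ7_WT. Setd6 was not the highest there, at 4.69 RPKM in Eed_null and 6.63 in CJ7_WT. Kdm5b stood at 11.7 and 15.1 RPKM in these columns and Ash2l at 7.98 and 10.7. At the low end stood Kdm4d, a demethylase best known from testis (0.0619 to 0.210 RPKM), Prmt2 (0.115 to 0.205), the brain enzyme Prmt8 (0.117 to 0.373) and Setd7, which monomethylates H3K4 (0.212 to 0.394). Their ranges overlapped from Kdm4d to Setd7 in this order. Kdm4d, Kdm6b, Prmt2 and Prmt6 rested on the fewest reads, with at least 8 (Prmt6), 32 (Kdm4d), 80 (Kdm6b) and 94 (Prmt2) per library.

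**Figure D1:**
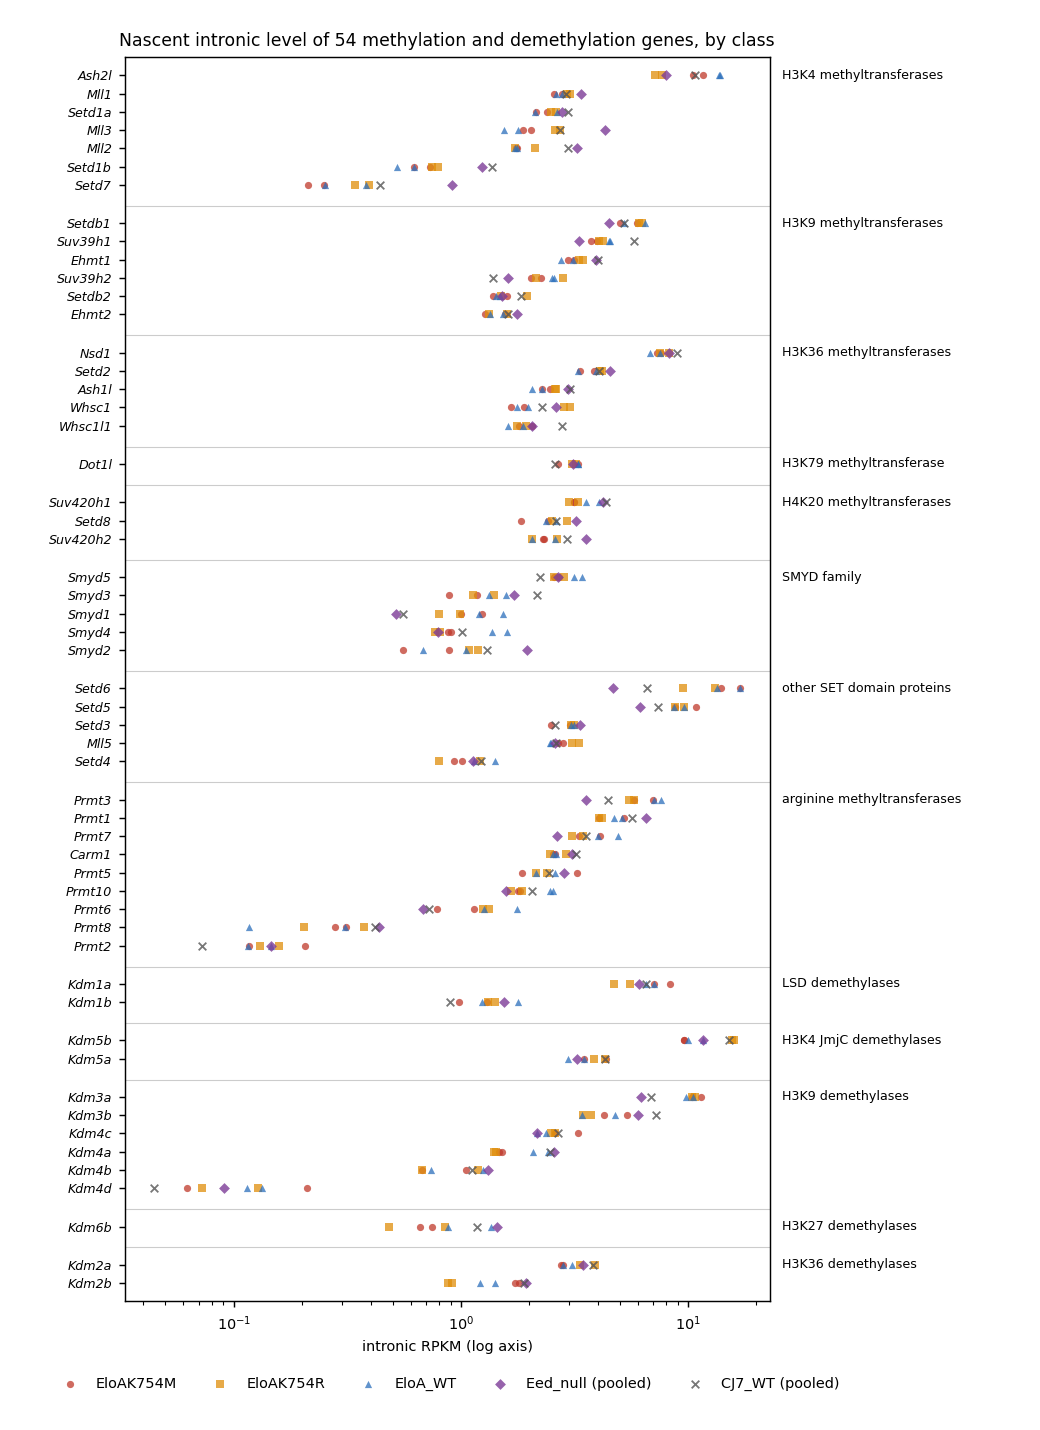
Intronic RPKM of the 54 genes on a log axis, grouped by class, with a point for each single library of EloAK754M, EloAK754R and EloA_WT and for the pooled columns of Eed_null and CJ7_WT. Most genes lie between 1 and 10 RPKM, and the libraries of a gene lie close together beside the differences between genes.

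The H3K9 and H3K79 enzymes followed throughout stood at middle levels. Setdb1 stood at 5.00 and 5.95 RPKM in EloAK754M, 6.05 and 6.26 in EloAK754R and 5.21 and 6.46 in EloA_WT. Ehmt1 (GLP) stood at 2.96 and 3.14 RPKM in EloAK754M, 3.45 and 3.31 in EloAK754R and 2.77 and 3.11 in EloA_WT. Its partner Ehmt2 (G9a) stood at 1.27 and 1.56 RPKM in EloAK754M, 1.59 and 1.33 in EloAK754R and 1.53 and 1.35 in EloA_WT. Dot1l, the H3K79 methyltransferase, stood at 3.28 and 2.67 RPKM in EloAK754M, 3.23 and 3.10 in EloAK754R and 3.28 and 3.27 in EloA_WT. None of these passed the test in any comparison, with 95% intervals of the log2 change in EloAK754R against EloA_WT from −0.30 to 0.47 for Setdb1, from −0.09 to 0.49 for Ehmt1, from −0.39 to 0.42 for Ehmt2 and from −0.38 to 0.28 for Dot1l.

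The comparison of EloAK754R with EloA_WT asks how transcription differs when this lysine is replaced by arginine. Of the 54 genes, 2 fell and none rose (3.70%, against 3.48% of the 15161 tested genes called in either direction, 0.686% called higher and 2.79% called lower). They were Ash2l and Smyd4. The median log2 change of the 54 was 0.01, against −0.14 for all tested genes, a median that equal library medians move to 0.05. Of the 54, 26 were below 0 (48.1%, against 64.5% of all genes). The calls over the whole table split into 104 higher and 423 lower, and with equal library medians into 164 and 160. Another 11 genes had an unadjusted p under 0.05 only, making 13 of 54 (24.1%) against 25.1% of all genes. On recovered reads limma voom called 8 of the 54, and 1345 of all 14789 genes in that fit. The 8 were Ash2l, Smyd4, Kdm4a, Kdm2b and Prmt10, lower, and Mll3, Whsc1 and Kdm5b, higher. In 14 genes both EloAK754R libraries stood above both EloA_WT libraries and in 16 below (25.9% and 29.6%, against 18% and 38.8% of all genes).

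Ash2l, the shared subunit of the H3K4 methyltransferase complexes, stood at 7.18 and 7.71 RPKM in EloAK754R against 13.9 and 13.7 RPKM in EloA_WT. Each EloAK754R library was thus far below each EloA_WT library, and the pair of EloAK754M libraries lay between them at 11.7 and 10.5 RPKM. The log2 change in EloAK754R was −0.88 (SE 0.12, limma adjusted p = 0.0352), on 6116 reads or more per library. Smyd4, a protein with a SET and a MYND domain, stood at 0.766 and 0.809 RPKM in EloAK754R against 1.60 and 1.36 RPKM in EloA_WT. Here the EloAK754M libraries, at 0.903 and 0.880 RPKM, stood close to EloAK754R. The log2 change was −0.83 (SE 0.14, adjusted p = 0.0438), on 1314 reads or more per library. In pooled CJ7_WT Ash2l stood at 10.7 and Smyd4 at 1.01 RPKM, below both EloA_WT libraries in each case. Both calls ended when any 1 of the 6 libraries was left out (adjusted p of 0.0796 to 0.194 for Ash2l and 0.0954 to 0.226 for Smyd4, with log2 changes of −0.94 to −0.72), and over all 16 alternatives their adjusted p ran from 0.00517 to 0.194 and from 0.00928 to 0.307.

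Among the H3K4 methyltransferase genes 6 of 7 had log2 changes above 0 in EloAK754R, with Ash2l the exception, a count that stayed at 6 under each scaling tried. In the main fit 64.5% of all tested genes were below 0, and none of these 6 was called. Mll3 (present name Kmt2c), which methylates H3K4 at enhancers, stood at 2.73 and 2.58 RPKM in EloAK754R against 1.55 and 1.78 in EloA_WT. The libraries did not overlap, and the log2 change of 0.65 (SE 0.13) missed the threshold at adjusted p = 0.0566. CJ7_WT stood with EloAK754R at 2.73 RPKM. Setd1b, the catalytic subunit of a complex that methylates H3K4 at promoters, stood at 0.746 and 0.790 RPKM against 0.523 and 0.623 in EloA_WT (0.37 on the log2 scale, adjusted p = 0.220). Of the other 4, Mll1, Mll2, Setd1a and Setd7, no log2 change exceeded 0.18.

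All 5 H3K36 methyltransferase genes had log2 changes above 0 in EloAK754R, with a median of 0.20, and did so under each scaling tried. In the main fit 64.5% of all tested genes were below 0, and none of the 5 was called. Whsc1 (present name Nsd2), which dimethylates H3K36, stood at 2.83 and 3.01 RPKM in EloAK754R against 1.77 and 1.97 in EloA_WT. These libraries did not overlap, and the log2 change of 0.62 (SE 0.13) had an adjusted p of 0.0623, against 0.0230 with limma voom on recovered reads. CJ7_WT, at 2.28 RPKM, lay between the groups. Whsc1 overlaps Nelfa on the other strand. The other 4, Setd2, Ash1l, Nsd1 and Whsc1l1, had log2 changes between 0.08 and 0.26.

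Demethylase genes stood on both sides in EloAK754R. Kdm5b stood at 15.6 and 15.9 RPKM in EloAK754R against 10.0 and 11.6 in EloA_WT, without overlap, and at 15.1 in CJ7_WT (0.55, SE 0.13, adjusted p = 0.0765). Kdm5a, its paralog, had 3.86 and 4.29 RPKM in EloAK754R against 2.97 and 3.50 in EloA_WT (0.33, adjusted p = 0.262). Kdm4a, which demethylates H3K9 and H3K36, stood at 1.41 and 1.43 RPKM in EloAK754R against 2.08 and 2.41 in EloA_WT. Its libraries did not overlap and CJ7_WT, at 2.46 RPKM, stood with EloA_WT (−0.62, SE 0.13, adjusted p = 0.060). Kdm2b stood at 0.914 and 0.878 RPKM against 1.42 and 1.22 in EloA_WT, and at 1.89 in CJ7_WT (−0.51, SE 0.13, adjusted p = 0.0893). Kdm1a (LSD1), which removes H3K4 methylation within the CoREST complex, stood at 5.52 and 4.71 RPKM against 7.07 and 6.51 in EloA_WT (−0.40, adjusted p = 0.164). Kdm6b, an H3K27 demethylase, stood at 0.854 and 0.481 RPKM against 1.35 and 0.879 in EloA_WT (−0.68, SE 0.30, adjusted p = 0.230), the widest spread of the genes named in this paragraph.

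Arginine methyltransferase genes had 6 of 9 log2 changes below 0 in EloAK754R, near the share of all tested genes below 0 (64.5%). With equal library medians or quantile normalization 5 of 9 were below 0. Prmt10 (present name Prmt9), known in human for methylating a splicing factor, stood at 1.66 and 1.85 RPKM in EloAK754R against 2.56 and 2.47 in EloA_WT, without overlap (−0.50, SE 0.12, adjusted p = 0.0756). Prmt1, the main source of asymmetric dimethylarginine, stood at 4.04 and 4.19 RPKM against 4.73 and 5.12 (−0.25, adjusted p = 0.351). Prmt5, which makes symmetric dimethylarginine, stood at 2.14 and 2.39 RPKM against 2.13 and 2.59 (−0.05, adjusted p = 0.926). Carm1, a coactivator that methylates H3 arginines, stood at 2.91 and 2.47 RPKM against 2.63 and 2.55 (0.05, adjusted p = 0.843). In the SMYD family, 4 of 5 log2 changes were below 0 under each scaling. Smyd1, a muscle enzyme that overlaps Krcc1 on the other strand, stood at 0.802 and 0.990 RPKM against 1.21 and 1.54 in EloA_WT (−0.56, adjusted p = 0.144). Smyd2 was the member of this family above 0, at 1.19 and 1.09 RPKM against 1.06 and 0.682 (0.38, adjusted p = 0.433). Mll5 (present name Kmt2e), a SET domain protein, had 3.30 and 3.09 RPKM in EloAK754R against 2.48 in each EloA_WT library (0.35, adjusted p = 0.122).

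The 6 H3K9 methyltransferase genes had log2 changes of −0.12 to 0.22 in EloAK754R, with 4 above 0 (all 6 with equal library medians or quantile normalization). In the main fit 64.5% of all tested genes were below 0. Suv420h1 (present name Kmt5b), which dimethylates H4K20, stood at 3.26 and 2.99 RPKM in EloAK754R against 3.57 and 4.05 in EloA_WT (−0.28, adjusted p = 0.225). Prmt7 stood at 3.43 and 3.08 RPKM against 4.94 and 4.02 (−0.44, adjusted p = 0.171) and Prmt3, which methylates a ribosomal protein, at 5.49 and 5.79 against 7.63 and 7.07 (−0.38, adjusted p = 0.167). In all 3 the libraries did not overlap. Kdm2a, the H3K36 demethylase related to Kdm2b, stood at 3.91 and 3.33 RPKM against 3.08 and 2.81 (0.29, adjusted p = 0.230), with EloAK754R above EloA_WT.

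**Figure D2:**
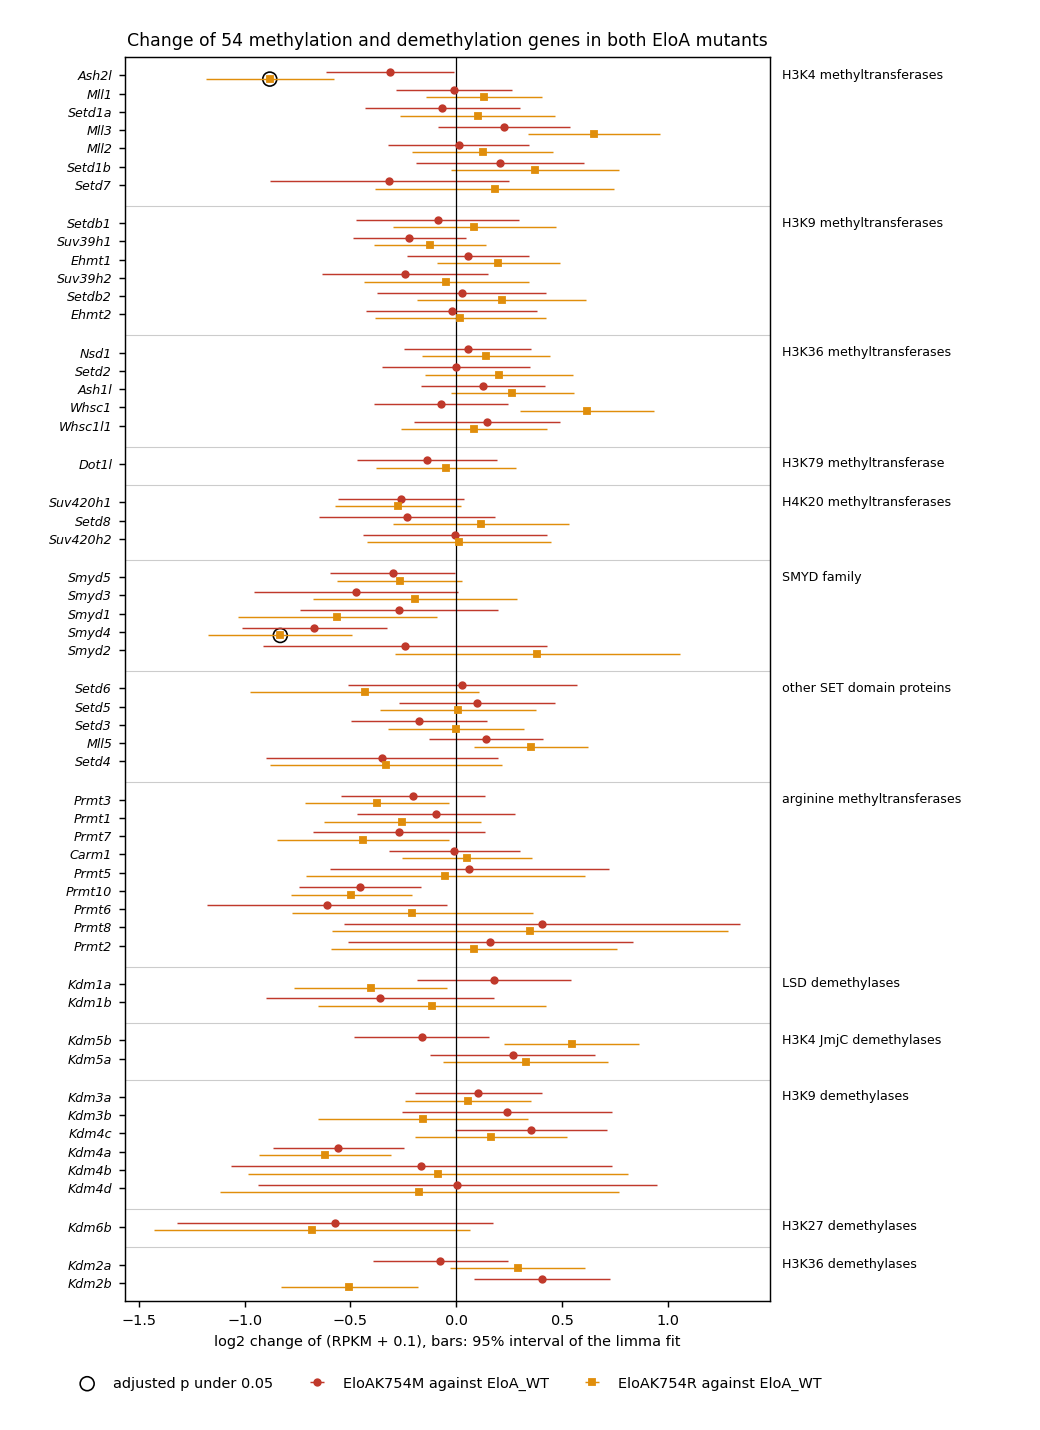
Log2 change of (RPKM + 0.1) in EloAK754M and EloAK754R against EloA_WT for the 54 genes by class, with 95% intervals from the limma fit of 2 libraries per group. The 2 circled points, Ash2l and Smyd4 in EloAK754R, are the changes with an adjusted p under 0.05, and the comparisons share the EloA_WT libraries.

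The comparison of EloAK754M with EloA_WT asks the same for methionine. None of the 54 genes was called by limma, against 0.218% of all tested genes (0.0132% called higher and 0.204% lower), while 7 had an unadjusted p under 0.05 (13%, against 15.4%). With limma voom on recovered reads 1 of the 54 was called, Smyd4, and 344 of all 14789 genes in that fit. The log2 changes lay between −0.67 and 0.41, with 41 of 54 within 0.30 of 0 and a median of −0.07, against −0.06 for all genes, which equal library medians move to 0.07. Log2 changes below 0 were found for 33 (61.1%, against 57.4% of all genes). In 4 genes both EloAK754M libraries stood above both EloA_WT libraries and in 16 below (7.41% and 29.6%, against 17% and 27.2% of all genes).

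The lowest value belonged to Smyd4, of the SMYD family, whose 5 log2 changes were all below 0 under each scaling tried, with a median of −0.30. Of all tested genes 57.4% were below 0 in the main fit. Smyd4 stood at 0.903 and 0.880 RPKM in EloAK754M against 1.60 and 1.36 in EloA_WT, without overlap (−0.67, SE 0.14, adjusted p = 0.122). Smyd3 stood at 1.18 and 0.883 RPKM against 1.59 and 1.33 (−0.47, SE 0.19, adjusted p = 0.332). Kdm4a stood at 1.51 and 1.47 RPKM in EloAK754M against 2.08 and 2.41 in EloA_WT, without overlap (−0.56, SE 0.13, adjusted p = 0.138). Prmt10 stood at 1.83 and 1.79 against 2.56 and 2.47 RPKM (−0.45, SE 0.12, adjusted p = 0.170). Prmt6, which methylates arginine 2 of H3, stood at 0.782 and 1.15 against 1.27 and 1.77 RPKM (−0.61, SE 0.23, adjusted p = 0.296) on 8 and 12 reads against 17 and 20. Kdm6b stood at 0.659 and 0.748 RPKM against 1.35 and 0.879 (−0.57, SE 0.30, adjusted p = 0.445).

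On the upper side Kdm2b stood at 1.81 and 1.74 RPKM in EloAK754M against 1.42 and 1.22 in EloA_WT, without overlap (0.40, SE 0.13, adjusted p = 0.234). In CJ7_WT Kdm2b stood at 1.89 RPKM, above all 6 libraries. Kdm4c, an H3K9 demethylase, stood at 2.60 and 3.26 RPKM against 2.16 and 2.36 (0.35, SE 0.14, adjusted p = 0.329). The log2 changes of Kdm5a, Kdm3b, Mll3 and Setd1b lay between 0.21 and 0.27, with adjusted p of 0.479 to 0.631. Kdm1a, Prmt1, Prmt5 and Carm1 had log2 changes between −0.10 and 0.18, and those of Prmt1 and Carm1 turned positive with quantile normalization or equal library medians.

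For the mean of both edited groups against EloA_WT limma called none of the 54 genes, against 1.58% of all tested genes (0.139% called higher and 1.44% lower). An unadjusted p under 0.05 was found for 10 (18.5%, against 21%). With limma voom on recovered reads 5 of the 54 were called, and 906 of all 14789 genes in that fit. All 4 edited libraries stood above both EloA_WT libraries in 3 genes and below both in 9 (5.56% and 16.7%, against 7.64% and 18.8%), and 28 had a log2 change below 0 (51.9%, against 62.1%). Nearest to the threshold were Smyd4 (−0.75, SE 0.12, adjusted p = 0.0525), Ash2l (−0.60, SE 0.11, adjusted p = 0.0622) and Kdm4a (−0.59, SE 0.11, adjusted p = 0.0657). Smyd4 and Kdm4a had nearly the same level in all 4 edited libraries, 0.766 to 0.903 and 1.41 to 1.51 RPKM, whereas Ash2l did not.

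**Figure D3:**
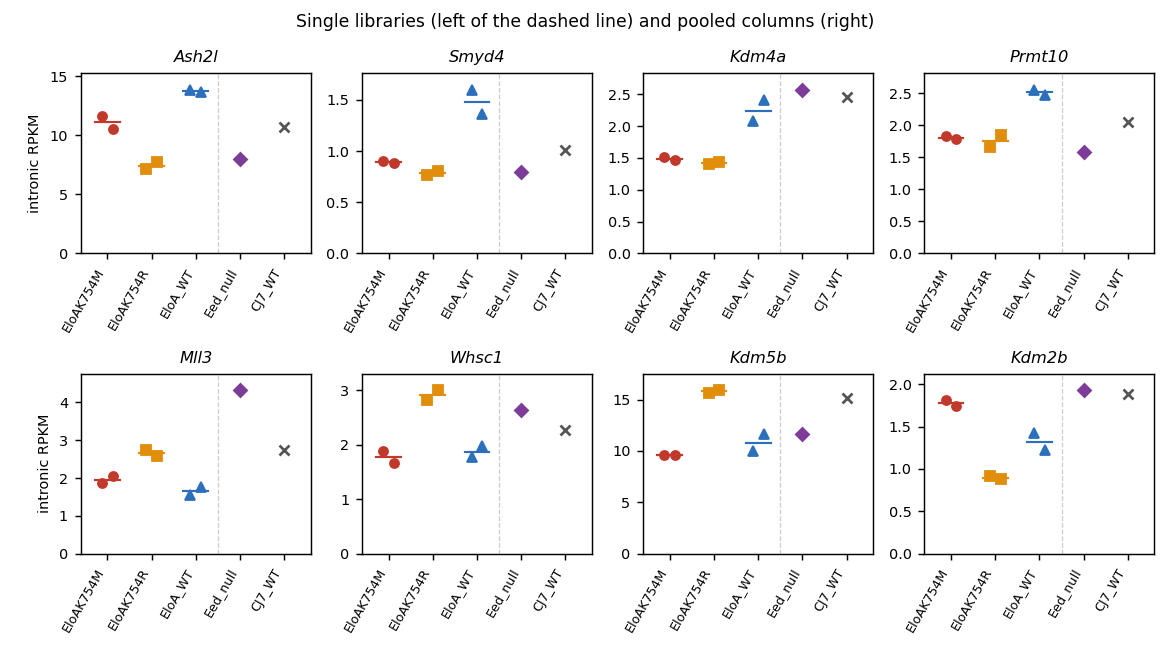
Intronic RPKM of 8 genes, each on its own axis from 0, with a point per single library and a bar at the mean of 2 for EloAK754M, EloAK754R and EloA_WT, and the pooled columns of Eed_null and CJ7_WT to the right of the dashed line. Ash2l, Smyd4, Kdm4a and Prmt10 are lower in all 4 edited libraries than in EloA_WT. The EloAK754M and EloAK754R points overlap for Prmt10 alone, though for Smyd4 and Kdm4a they lie close together.

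The 2 substitutions were compared with each other directly, EloAK754M against EloAK754R. None of the 54 genes was called by limma, against 0.29% of all tested genes (0.112% called higher and 0.178% lower). An unadjusted p under 0.05 was found for 7 (13%, against 18.5%). With limma voom on recovered reads 4 of the 54 were called, and 451 of all 14789 genes in that fit. Of the 4, Kdm2b and Ash2l were higher and Kdm5b and Whsc1 lower in EloAK754M. In 9 genes both EloAK754M libraries stood above both EloAK754R libraries and in 19 below (16.7% and 35.2%, against 31.9% and 18.6% of all genes), and 32 had a log2 change below 0 (59.3%, against 39.4%). Kdm2b, at 1.81 and 1.74 RPKM in EloAK754M against 0.914 and 0.878 in EloAK754R, had a log2 change of 0.91 (SE 0.13, adjusted p = 0.0636). It overlaps Rnf34 on the other strand, and the deposited counting does not say whether it used strand. Kdm5b stood at 9.64 and 9.59 RPKM in EloAK754M against 15.6 and 15.9 in EloAK754R (−0.71, SE 0.13, adjusted p = 0.0914). Whsc1 stood at 1.89 and 1.66 RPKM against 2.83 and 3.01 (−0.69, SE 0.13, adjusted p = 0.0930).

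The other genes named for this comparison were less far apart relative to their spread. Kdm1a, which overlaps Luzp1 on the other strand, stood at 8.36 and 7.06 RPKM in EloAK754M against 5.52 and 4.71 in EloAK754R (0.58, SE 0.15, adjusted p = 0.134). Ash2l stood at 11.7 and 10.5 RPKM against 7.18 and 7.71 (0.57, SE 0.12, adjusted p = 0.11), and limma voom on recovered reads gave 0.58 (adjusted p = 0.0408). Smyd2 stood at 0.884 and 0.556 RPKM against 1.19 and 1.09 (−0.62, SE 0.27, adjusted p = 0.296). All 6 H3K9 methyltransferase genes had log2 changes below 0 between the substitutions, against 39.4% of all tested genes. Their median was −0.16 and none was called, and with each chromosome centred 4 of 6 were below 0.

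Changes of whole chromosomes stood beside several of these values. In EloAK754R against EloA_WT the median log2 change of all tested genes was −0.57 on chromosome 11, −0.31 on chromosome 4, −0.26 on chromosome 8, 0.25 on chromosome 14 and 0.26 on the X chromosome. In EloAK754M it was −0.46 on chromosome 11 and between −0.08 and 0.01 on the chromosomes of the other 52 genes. Smyd4 and Kdm6b lie on chromosome 11, and less the median of that chromosome their log2 changes in EloAK754R were −0.27 and −0.12. Ash2l, Prmt10, Prmt7, Setd6 and Whsc1l1 lie on chromosome 8, where Ash2l less the chromosome median was −0.62. Kdm4a, Kdm1a and Kdm4c lie on chromosome 4, and less its median Kdm4a stood at −0.32 in EloAK754R and −0.51 in EloAK754M. Mll3, Whsc1 and Kdm2b all lie on chromosome 5, with a median of −0.12, and Kdm5b lies on chromosome 1, with a median of 0.10. In a fit with every chromosome centred, an alternative chosen after seeing the data, neither Ash2l (−0.61, adjusted p = 0.115) nor Smyd4 (−0.26, adjusted p = 0.307) was called in EloAK754R, and 90 of all genes were called in place of 527.

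**Figure D4:**
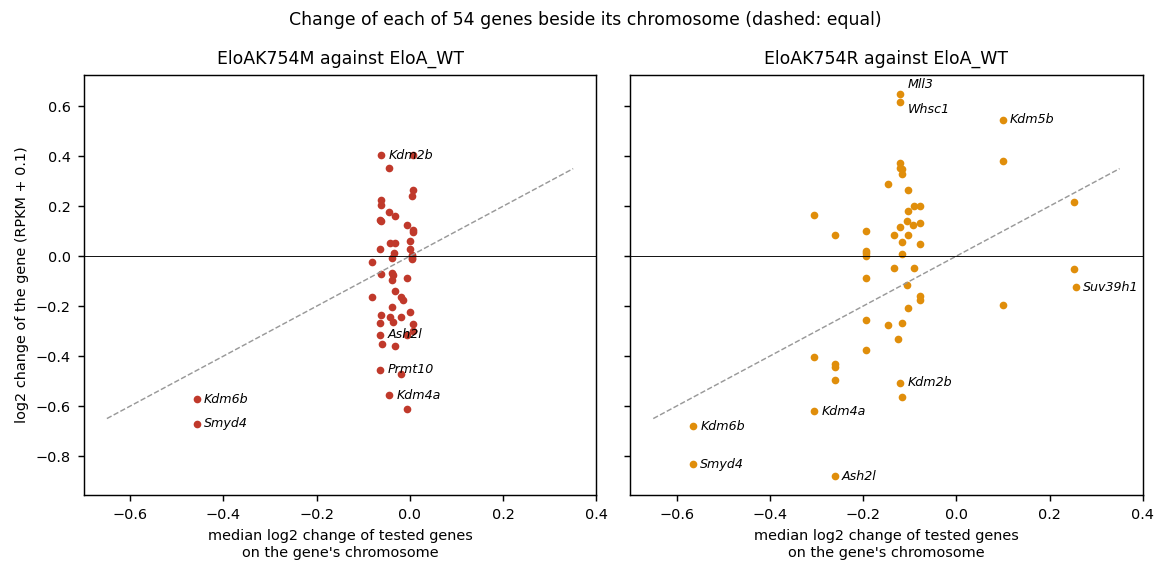
Log2 change of each of the 54 genes against the median log2 change of the tested genes on its chromosome, for EloAK754M and EloAK754R against EloA_WT, with a dashed line where both are equal. In EloAK754R Smyd4 and Kdm6b lie 0.27 and 0.12 below the line, at the low median of chromosome 11, and Ash2l lies 0.62 below it.

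The pooled CJ7_WT column, the other wild type, stood above all 6 libraries for 20 of the 54 genes (37%, against 17.5% of all tested genes) and below all 6 for 12 (22.2%, against 33%). It lay within the range of the 4 edited libraries for 17 genes (31.5%, against 39.9%) and within the narrower range of the EloA_WT pair for 6 (11.1%, against 18.1%). Among the 20 above were Mll2, Setd1b, Prmt1 and Suv39h1. Mll2 (present name Kmt2d), an enhancer H3K4 methyltransferase, stood at 1.75 and 1.77 RPKM in EloAK754M, 2.11 and 1.73 in EloAK754R, 1.76 and 1.73 in EloA_WT and 2.95 in CJ7_WT. Setd6 and Smyd1 were below, Setd6 at 6.63 and Smyd1 at 0.558 RPKM in CJ7_WT.

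Eed_null was compared with CJ7_WT by the ratio of the pooled columns, with no replicate check and no test. No gene of the 53 with a mean of at least 0.1 RPKM was past 2-fold on the log2(RPKM + 0.1) scale, against 7.78% of the 14890 genes compared (6.12% higher and 1.67% lower). Past 1.5-fold were 3 higher and 1 lower, against 16% and 5.37% of all genes. These shares compare sets of unlike level, with a median of 2.40 RPKM for the 54 genes and 1.09 for all tested genes. With the filter at a mean of 0.5 RPKM, 0 of 51 genes were past 2-fold, against 537 of 10460. The median log2 ratio of the 53 was −0.04, against 0.11 for all genes, with 23 genes above 0 and 30 below. Intervals below are exact 95% intervals of the read ratio, which cover counting error only.

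Setd7 had the highest ratio, at 0.912 RPKM in Eed_null and 0.441 in CJ7_WT (2.07-fold in plain RPKM, interval 1.94 to 2.20, log2 ratio 0.90 with the added 0.1). Kdm1b, an H3K4 demethylase best known from oocytes, stood at 1.55 RPKM in Eed_null and 0.894 in CJ7_WT (1.74-fold, 1.63 to 1.85), and it overlaps Dek and Tpmt on the other strand. Mll3 stood at 4.33 and 2.73 RPKM (1.58-fold, 1.57 to 1.60), above every other column. Smyd2 stood at 1.96 RPKM in Eed_null and 1.31 in CJ7_WT (1.5-fold, 1.42 to 1.58). Setd3, a histidine methyltransferase of actin, and Setd8 (present name Kmt5a), which monomethylates H4K20, had ratios of 1.28 and 1.23. Prmt2 had a plain ratio of 2.02 on 322 and 191 reads, at 0.146 RPKM in Eed_null and 0.0724 in CJ7_WT.

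The lowest ratio belonged to Suv39h1, the H3K9 trimethylase of pericentric heterochromatin, at 3.31 RPKM in Eed_null and 5.78 in CJ7_WT (ratio 0.572, 0.532 to 0.615, on 1104 and 2310 reads). Its log2 ratio was −0.79, against a median of −0.14 for genes of the X chromosome, where it lies. Suv39h1 overlaps Gm14820, whose mean RPKM over the 6 single libraries was above that of Suv39h1. Setd6 stood at 4.69 and 6.63 RPKM (ratio 0.708), Ash2l at 7.98 and 10.7 and Whsc1l1 (present name Nsd3), an H3K36 methyltransferase, at 2.06 and 2.77. Prmt7, which monomethylates arginine, stood at 2.65 and 3.55 RPKM. These 4 lie on chromosome 8, whose genes had a median log2 ratio of −0.21, and less that median their log2 ratios were −0.28, −0.21, −0.21 and −0.20. Kdm5a stood at 3.23 RPKM in Eed_null and 4.29 in CJ7_WT, and both H3K4 Jumonji demethylase genes had ratios below 1. Kdm2b, Ehmt1, Mll5, Ash1l and Prmt8 stood within 0.04 of a log2 ratio of 0. Of the other genes followed throughout, Dot1l had a log2 ratio of 0.25, Kdm6b 0.27, Prmt1 and Prmt5 0.21 each and Ehmt2 0.13, and those of Carm1, Kdm1a and Setdb1 were −0.05, −0.10 and −0.22.

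**Figure D5:**
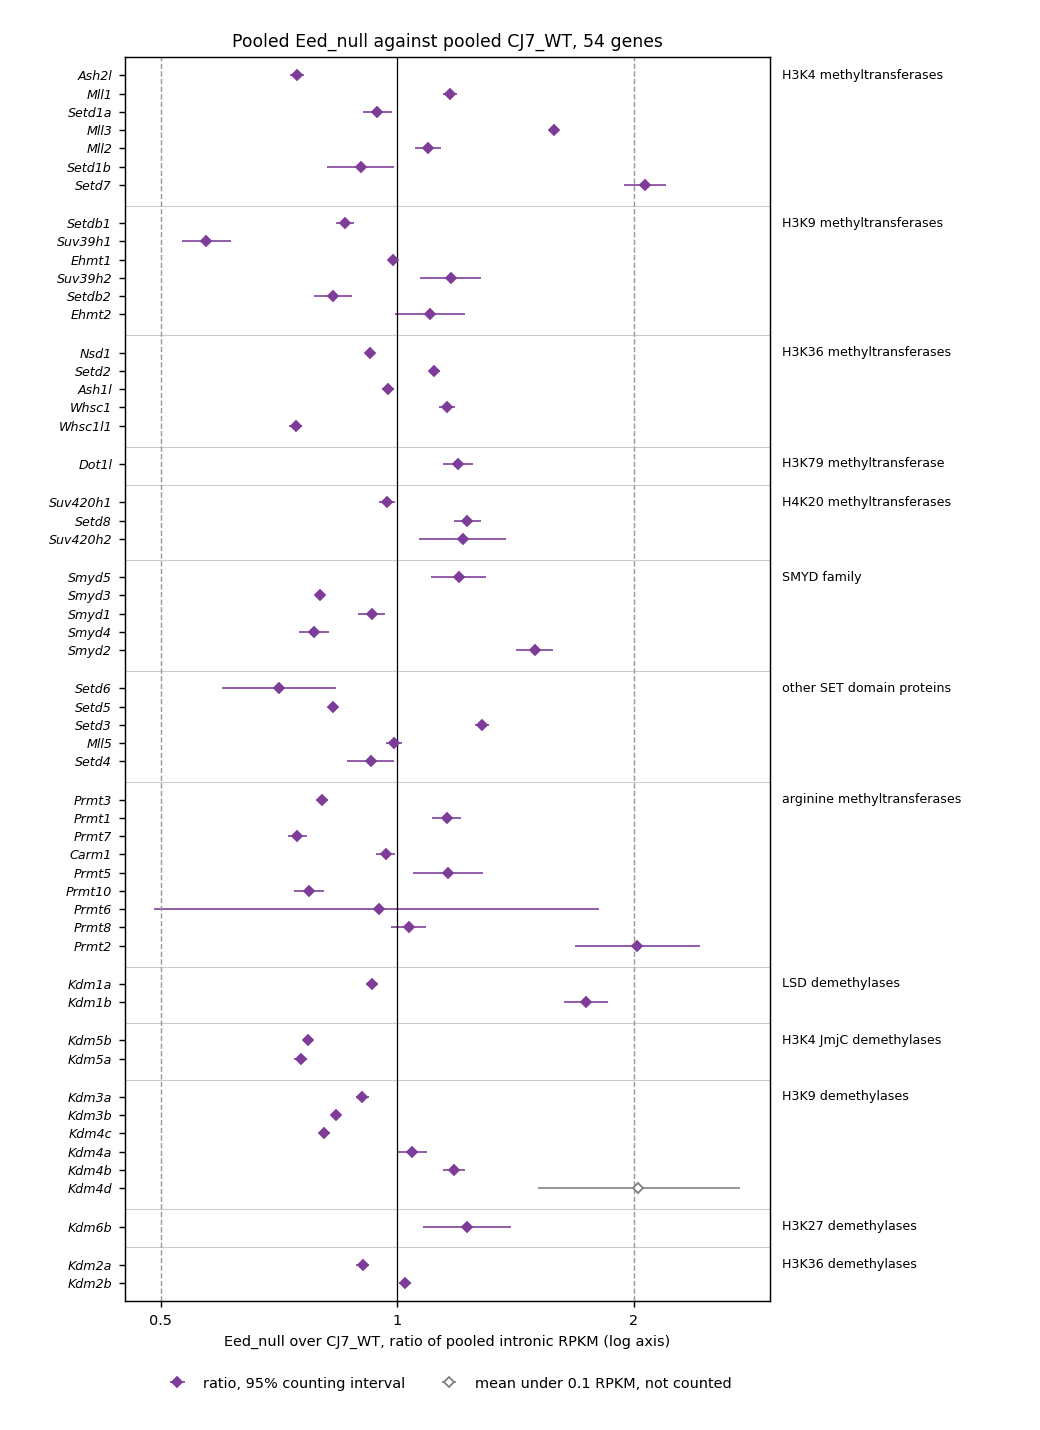
Ratio of pooled intronic RPKM in Eed_null over CJ7_WT for the 54 genes by class on a log axis, with exact 95% counting intervals and dashed lines at 0.5 and 2. Setd7, Prmt2 and Kdm4d lie just past 2 in plain RPKM and Suv39h1 lies lowest at 0.572.

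Genes that work with these enzymes were counted by list. Of 33 partners of their complexes (such as Wdr5, Rbbp5, Rcor1 and Trim28), 1 fell in EloAK754R (2.79% of all genes were called lower there) and limma called none in EloAK754M, with a median log2 change of −0.03 in EloAK754R. Cbx1, an HP1 protein that binds methylated H3K9, was the one that fell, at 4.82 and 5.10 RPKM in EloAK754R against 8.70 and 9.22 in EloA_WT (−0.84, adjusted p = 0.0331), and it lies on chromosome 11. For the mean of both edited groups Cbx1 (−0.77, adjusted p = 0.0378) and Skp1a, an SCF ubiquitin ligase subunit on the same chromosome (−0.60, adjusted p = 0.0498), fell. A list of other histone methyltransferase and demethylase genes had 18 tested members, though Fbxo11 among them is not such an enzyme. Of the 18, limma called 1 lower in EloAK754R and none in EloAK754M. This was Jmjd6, a Jumonji hydroxylase also on chromosome 11, at 2.24 and 1.91 RPKM against 4.47 and 3.71 in EloA_WT (−0.94, adjusted p = 0.0402). Fbxo11, an F-box protein, stood at 1.91 and 1.71 RPKM in EloAK754M, 3.85 and 3.24 in EloAK754R and 4.34 and 4.41 in EloA_WT (−1.23 in EloAK754M, adjusted p = 0.0510). For the mean of both edited groups limma called 2 genes of this list lower, as it did 1.44% of all tested genes. They were Jmjd6 (−0.88, adjusted p = 0.0455) and Fbxo11 (−0.77, adjusted p = 0.0488). For Fbxo11, EloAK754R lay between EloAK754M and EloA_WT. Prdm16, a PR domain protein of this list, was past 2-fold in Eed_null, at 0.505 RPKM in Eed_null and 0.0684 in CJ7_WT.

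The list of methyl donor and cofactor supply had 14 of 16 tested genes below 0 in EloAK754M and 13 of 16 in EloAK754R. Of all tested genes 57.4% were below 0 in EloAK754M and 64.5% in EloAK754R. The medians of the list were −0.47 in EloAK754M and −0.37 in EloAK754R. None was called in EloAK754M. With each chromosome centred 14 were below 0 in EloAK754M and 9 in EloAK754R. Shmt2, the mitochondrial serine hydroxymethyltransferase, fell in EloAK754R, at 4.36 and 3.06 RPKM against 8.58 and 8.57 in EloA_WT (−1.21, adjusted p = 0.0386). In EloAK754M it stood at 3.77 and 3.90 RPKM (−1.14, adjusted p = 0.0882). CJ7_WT, at 2.26 RPKM, lay below all 6 libraries.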

How the data were processed

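Intronic RPKM values were taken as deposited. The submitters' processing notes name BWA and mm9, while the intron counter and its strand setting were not given in the sources used here. Eed_null and CJ7_WT are the authors' pooled columns. Tests used limma 3.58.1 in R 4.3.3 (trend, two-sided) on log2(RPKM + 0.1) for the 15161 genes averaging 0.1 RPKM or more, in 1 fit of 6 libraries, with Benjamini-Hochberg adjustment over all tested genes and a threshold of 0.05. Fold changes are on that scale and understate the change of low genes. The steps of the RPKM values gave whole reads for 99.476% of 20817 genes (those above 0 in at least 6 columns), within 0.01 read (0.06 for high values), and gave limma voom as an alternative and exact intervals. Windows came from RefSeq (GRCm38.p6) and chromosomes and overlaps from GENCODE M21. Of the 54 genes, 12 overlap a protein-coding gene on the other strand, and not all are marked where they are named. Those not marked are Setdb1, Suv39h2, Ash1l, Mll5, Kdm5a, Carm1 and Prmt7. Suv39h1, Kdm6b and Dot1l are among the genes that overlap other genes of the table. The part of overlapping genes in these values was not tested. Enzyme names are as in the table. Named genes were those called, the largest changes each way above 0.5 RPKM, the highest and lowest levels and 10 fixed genes. The members and lists were chosen with earlier results of these data known. Alternatives were other pseudocounts, filters, scalings, fits and left-out libraries. Some genes of the lists are not reported here.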

Additional observations from a re-analysis of the deposited data

How the results depend on the processing

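In EloAK754R against EloA_WT Ash2l and Smyd4 alone were called with pseudocounts of 0.5 and 0.01. There the 54 genes gave 0 calls with no filter, with equal library medians, in a fit of those groups alone, with each chromosome centred (chosen after seeing the data) and without any 1 library, 5 with the filter at 0.5 RPKM, 1 with quantile normalization (Kdm5b), and 8 with voom. In EloAK754M voom gave 1. For the mean of both the 0.5 RPKM filter gave 1 and voom 5. Between EloAK754M and EloAK754R quantile normalization gave 2 and voom 4. Leaving out 1 library gave 0 in all 4 comparisons, in fits that assume the lone library varies like the other groups. In Eed_null a pseudocount of 0.01 gave 1 gene past 2-fold (Setd7) and 1.5-fold gave 4. The cause of these changes was not tested.

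Over the tested genes, the deviations of replicate 1 from its group mean correlated between groups at 0.152 to 0.197. With only 2 replicate numbers this does not show pairing. A replicate block gave 0 calls among the 54 genes for EloAK754M, 10 for EloAK754R, 3 for the mean and 1 for EloAK754M against EloAK754R, and over all genes 227, 1777, 1046 and 355.

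Over all genes, EloAK754M (33 calls) gave 16 with no filter, 16 with equal medians, 17 with quantile normalization, 344 with voom, 3 alone, 20 with chromosomes centred and 2 to 52 leaving out a library. EloAK754R (527) gave 160, 324, 333, 1345, 1, 90 and 1 to 9 in that order. The mean (239) gave 50, 40, 51 and 906, 40 with chromosomes centred and 3 to 35 leaving out a library. EloAK754M against EloAK754R (44) gave 26 with no filter, 12 with the 0.5 RPKM filter, 68 with equal medians, 90 with quantile normalization, 451 with voom, 26 alone and 5 to 62 leaving out a library. Eed_null (1159 past 2-fold) gave 264 with a pseudocount of 0.5, 1841 with 0.01, 537 with the 0.5 RPKM filter and 3187 at 1.5-fold.

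Log2 changes near 0 changed sign, none of them called. In EloAK754M equal medians gave 0.104 for Ehmt2, 0.0384 for Setdb1, 0.0311 for Prmt1 and 0.117 for Carm1, and quantile normalization 0.102, 0.0230, 0.0130 and 0.118. Chromosome centring gave 0.0871 for Ehmt2 and 0.0024 for Carm1. Leaving out a library gave −0.283 to 0.0035 for Dot1l, −0.0259 to 0.133 for Ehmt1, −0.161 to 0.115 for Ehmt2, −0.241 to 0.0643 for Setdb1, −0.324 to 0.447 for Prmt5, −0.273 to 0.0813 for Prmt1 and −0.0332 to 0.0144 for Carm1. In EloAK754R equal medians gave 0.144 for Dot1l and 0.140 for Prmt5, quantile normalization 0.126 and 0.125, chromosome centring 0.0885 for Dot1l and voom −0.0060 for Ehmt2. Leaving out a library gave −0.101 to 0.139 for Ehmt2, −0.0683 to 0.237 for Setdb1, −0.188 to 0.0822 for Prmt5 and −0.0634 to 0.163 for Carm1. With 2 libraries a group and a median replicate SD of 0.195 on the log2 scale, a change as large as 0.91 (Kdm2b between EloAK754M and EloAK754R) missed the threshold.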
